A study of Mus musculus with 22 samples.

Results

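The potassium channel genes were taken as the rows of the count table whose symbol starts with Kcn, which gave 95 of the 23453 gene symbols. They encode the pore-forming subunits of potassium channels and the proteins that bind them, except for *Kcnq1ot1*, a long noncoding RNA, and *Kcnrg*, a regulator that is no subunit. Exonic reads of each gene were counted in 22 single astrocytes, which had been grown from the cortex of newborn (P0-P1) C57BL/6 mouse pups, shaken and treated with cytosine arabinoside, and exposed to EtOH during calcium imaging. The calcium signal put each cell in a response type. There were 6 S-type cells with a sustained signal, 6 T-type cells with a transient signal, 5 M-type cells with a mixed signal and 5 NR cells that did not respond. The sources describe 1 culture protocol for all types, with cultures made from single pups, and no untreated cell was analysed here. Since neither the labels nor the methods tie a cell to an animal or a culture, each type counts as 1 sample. Differences between types are therefore given as values, with no test, and cells are named by their type and a number.

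Potassium channels let potassium ions leave or enter a cell along their gradient, and they set the resting membrane potential. Inward rectifiers and tandem-pore leak channels are open near rest, voltage-gated channels open on depolarisation, and calcium-activated channels link a rise in cytosolic calcium to the membrane potential. Astrocytes are known for a very negative resting potential and for taking up the potassium that neurons release, for which the inward rectifier encoded by *Kcnj10* is the textbook channel.

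Libraries held between 2937786 and 22131076 reads. Counts were divided by a size factor per cell, which lay between 0.183 and 1.56 in T-type and between 0.923 and 2.31 in the other types, and such a value is called a normalized count below. T-type cells also had fewer genes with a read (median 9204) than S-type cells (median 11356). All 12 astrocyte markers had reads, and they summed to between 4845 and 20382 CPM (counts scaled to the reads of the cell) in every cell. The 12 microglial markers summed to 51.9, 51.6 and 64.0 CPM in NR cells 1, 2 and 4, and to at most 7.65 CPM in every other cell. Summed neuronal markers ranged from 38.1 to 2076 CPM and those of mural cells and fibroblasts from 33.9 to 7450.4 CPM. Markers of the oligodendrocyte lineage summed to between 34.0 and 3329 CPM, highest in T-type cell 3. Those of endothelium summed to between 0 and 200 CPM, highest in T-type cell 5. Within these lists, *Cdh5* and *Cldn5* (endothelium), *Sox10* (oligodendrocyte lineage), *Slc17a7* (neuron) and *Rgs5* (mural cells) had no read. The part of other cell types in the levels below was not tested.

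A read was found for 72 of the 95 potassium channel genes, and 23 had none in any cell. The share without a read was 24.2%, beside 25.5% of all symbols. Detection was patchy among the rest. A read in at least 5 cells, the limit used for every comparison between types, was reached by 32 genes (33.7%, beside 54.2% of all symbols), while 40 genes were read in 1 to 4 cells and 16 of these in 1 cell only. These 40 rarely read genes had a median of 14 reads over all cells, and they held 0.785% of all reads on potassium channel genes. *Kcnj10*, *Kcnd3*, *Kcne1l*, *Kcnk1* and *Kcnk2* were read in all 22 cells. Among the 32 genes in at least 5 cells, 1 cell held the majority of the summed normalized counts for 11 genes (34.4%), which was the case for 19.02% of all genes under the same limit.

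The families differed in how many members were read. Of the 17 voltage-gated pore subunits of the Kcna, Kcnb, Kcnc and Kcnd families, 9 reached 5 cells, and *Kcna3*, *Kcna10*, *Kcnb2* and *Kcnd1* had no read. Of 15 inward rectifiers, 2 reached 5 cells and 5 had no read. The 14 tandem-pore channels had 4 in at least 5 cells, namely *Kcnk1*, *Kcnk2*, *Kcnk10* and *Kcnk13*. Auxiliary subunits were read most widely, with 9 of 16 in at least 5 cells, whereas 1 of 10 electrically silent subunits (*Kcnf1*), 2 of 8 Kcnh genes, 1 of 5 Kcnq genes and 3 of 8 calcium- or sodium-activated channel genes reached that limit.

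Single cells had a read for between 11 and 38 potassium channel genes. In S-type the lowest, median and highest number was 14, 27 and 32, and in T-type it was 11, 16.5 and 24. M-type cells had 15, 30, 27, 27 and 24 genes, and NR cells had 20, 38, 28, 26 and 20. T-type thus had the lowest median, although its cells overlapped with those of every other type. With every cell thinned to the 2937786 reads of the smallest library, the expected median was 12.2 in T-type, 18.4 in NR, 21.4 in M-type and 21.5 in S-type, so T-type had the lowest median at the same number of reads too. The same order of T-type against the others was found over all genes, with an expected median of 7829 genes in T-type, 9915 in NR, 10105 in M-type and 10286 in S-type. Potassium channel genes made up a median of 0.158% of these genes in T-type, beside 0.201% in NR, 0.202% in M-type and 0.209% in S-type. Size factors at the same number of reads also differed, and their part in this was not tested. NR cell 2 stood highest, with 38 genes, and it also had the most genes of any kind with a read (13070).

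**Figure D1:**
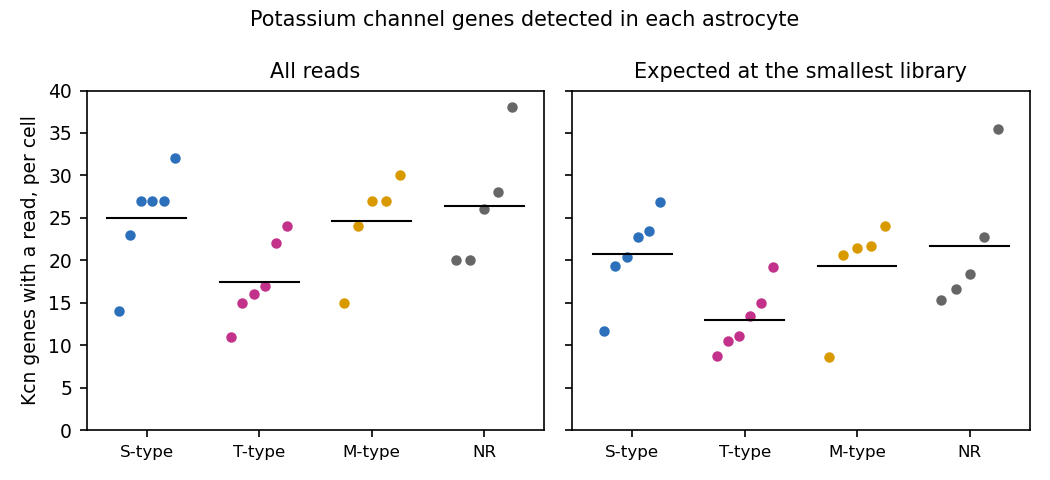
Number of potassium channel (Kcn) genes with at least 1 read in each astrocyte (y axis) by response type (x axis), from all reads on the left and as the expected number at the smallest library on the right. Points are cells and the line is the mean of a type. T-type cells reach at most 24 genes, and NR cell 2 has 38.

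Reads on potassium channel genes made up between 0.0266% of the library in M-type cell 1 (95% exact binomial interval 0.0259 to 0.0274) and 0.321% in T-type cell 3 (0.314 to 0.327). Such intervals describe the counting error alone, since copies of 1 molecule made during amplification were counted as separate reads. NR had the highest median share with 0.269%, beside 0.164% in M-type, 0.163% in T-type and 0.169% in S-type, and the cells overlapped. Without *Kcnj10*, the most read gene of the group, NR and S-type were level, at a median of 0.150% and 0.149%, and M-type (0.118%) and T-type (0.119%) were lower. The 6 most read genes held 85.1% of the 603090 reads on the group. *Kcnq1ot1*, which is no channel gene, held 58935 of these reads. They were split into 22699 in NR, 18413 in M-type, 14989 in S-type and 2834 in T-type. Shares without *Kcnq1ot1* are not given. *Kcnj10* was the most read potassium channel gene in 8 cells, *Kcnd3* in 6 and *Kcne1l* in 5, and *Kcnk2*, *Kcnk13* and *Kcnq1ot1* led in 1 cell each.

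Levels of different genes are comparable only per length, for which reads were divided by the exonic length of the gene and the reads of the cell (RPKM). On this scale the highest mean over the 22 cells was that of *Kcne1l* (161.7 RPKM), whose product is an accessory subunit of voltage-gated channels. *Kcnj10* followed with 87.9 RPKM, *Kcnk2* with 46.5, *Kcnd3* with 31.8, *Kcnk13* with 16.9 and *Kcnk1* with 12.8. *Kcnf1*, *Kcnk10*, *Kcnc2* and *Kcna6* completed the first 10, at 7.52, 5.51, 3.37 and 3.18 RPKM. The first 4 genes were above 20 RPKM in each of the 4 types, whereas *Kcnc2* and *Kcna6* were near 0 in some types. *Kcnc2* had 11.0 RPKM in S-type and 1.60 in M-type, but 0.0232 in T-type and 0.0164 in NR. *Kcna6* had 9.51 RPKM in NR and 0.0172 in T-type. Of the exonic bases of *Kcna6*, 39.6% lie opposite an antisense gene, and since the sources used here do not say whether the counting used strand, its reads cannot be told apart from those of that gene. The same holds for 12.2% of the exonic bases of *Kcnk2*, 8.01% of *Kcnk1* and 1.72% of *Kcnd3*.

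**Figure D2:**
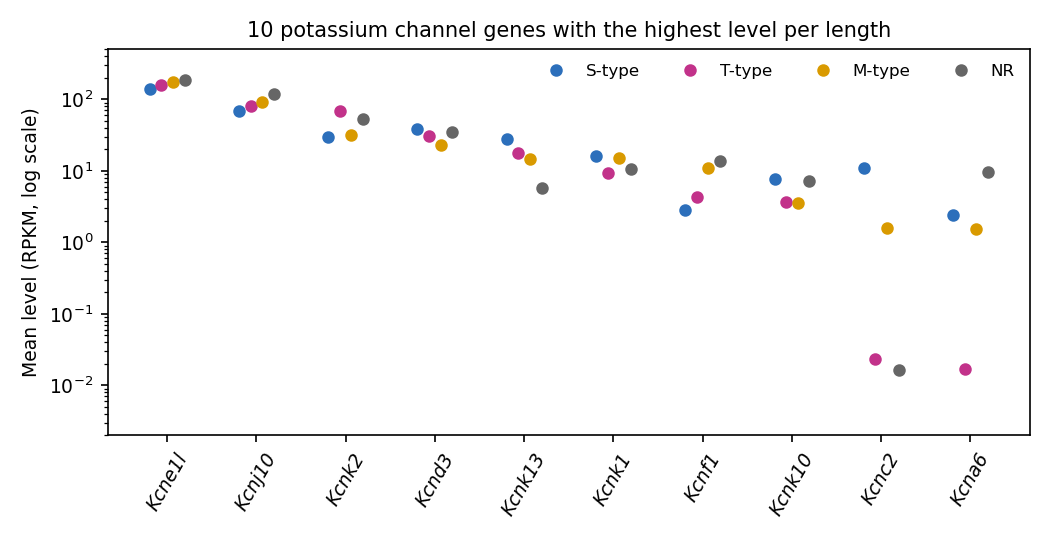
Mean level per exonic length (RPKM, log scale) of the 10 potassium channel genes with the highest mean over all cells, with 1 point per response type. *Kcne1l*, *Kcnj10*, *Kcnk2* and *Kcnd3* stay above 20 RPKM in the 4 types, *Kcnk2* with 29.9 in S-type and 69.4 in T-type, and *Kcnc2* and *Kcna6* spread widely.

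Promoter sequence is shown for the 3 most read pore subunits, for the neighbour of one of them and for *Kcnc2*, the gene with the largest difference of S-type from both T-type and NR. *Kcnj10* lies on chromosome 1 at 172341210 to 172374085 (plus strand, GRCm38). Its nearest potassium channel gene, *Kcnj9*, starts 11.9 kb away at 172329318 and is read in the other direction, on the minus strand. *Kcnj10* had 163906 reads and *Kcnj9* had 1 read. The 250 bases before the RefSeq start of each gene (GRCm38.p6, 5′ to 3′ on the strand of the gene) are given with every CG dinucleotide in capitals, for *Kcnj10* chr1:172340960-172341209 (plus), *Kcnj9* chr1:172329323-172329572 (minus), *Kcnd3* chr3:105451640-105451889 (plus), *Kcnk2* chr1:189402274-189402523 (minus) and *Kcnc2* chr10:112269767-112270016 (plus).
Kcnj10: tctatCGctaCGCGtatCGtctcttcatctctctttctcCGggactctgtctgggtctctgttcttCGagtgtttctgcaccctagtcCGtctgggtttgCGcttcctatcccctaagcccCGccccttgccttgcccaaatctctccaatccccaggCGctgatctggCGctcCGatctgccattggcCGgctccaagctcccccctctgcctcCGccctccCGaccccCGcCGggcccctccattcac
Kcnj9: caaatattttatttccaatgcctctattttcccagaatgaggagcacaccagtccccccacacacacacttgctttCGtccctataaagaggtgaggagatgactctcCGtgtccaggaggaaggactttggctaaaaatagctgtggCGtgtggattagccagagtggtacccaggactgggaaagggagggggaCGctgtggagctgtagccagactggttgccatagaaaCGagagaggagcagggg
Kcnd3: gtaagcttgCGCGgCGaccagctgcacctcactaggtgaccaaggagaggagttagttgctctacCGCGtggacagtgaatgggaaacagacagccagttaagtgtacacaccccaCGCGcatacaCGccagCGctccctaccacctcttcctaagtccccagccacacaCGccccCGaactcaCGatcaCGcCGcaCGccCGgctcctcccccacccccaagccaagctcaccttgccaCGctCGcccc
Kcnk2: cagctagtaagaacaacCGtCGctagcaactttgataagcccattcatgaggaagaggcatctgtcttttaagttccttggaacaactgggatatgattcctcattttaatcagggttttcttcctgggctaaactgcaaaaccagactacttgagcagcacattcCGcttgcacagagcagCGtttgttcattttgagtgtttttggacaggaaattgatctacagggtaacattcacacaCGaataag
Kcnc2: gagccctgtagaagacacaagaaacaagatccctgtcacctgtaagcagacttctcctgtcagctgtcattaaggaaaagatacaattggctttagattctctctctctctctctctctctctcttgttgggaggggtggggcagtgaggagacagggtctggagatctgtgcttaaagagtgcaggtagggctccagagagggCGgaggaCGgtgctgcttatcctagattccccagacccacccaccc

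*Kcnd3* held 18 CG dinucleotides in this window, *Kcnj10* 17, *Kcnj9* and *Kcnk2* 5 each, and *Kcnc2* 2. A window was found for 70 of the 95 potassium channel genes, and 42.9% of them held at least 10 CG dinucleotides, beside 51.5% of the 16404 genes with a window. The gap between potassium channel genes and all genes depended on how widely a gene was read. Genes read in all 22 cells had a median of 18 CG dinucleotides over all genes, but of 9 over the 5 potassium channel genes, with *Kcnk1* at 0. For genes read in 5 to 21 cells the medians were 15 over all genes and 7 over 22 potassium channel genes. For genes with no read the order was the opposite, with 2 over all genes and 7 over 14 potassium channel genes. It was also the opposite for genes read in 1 to 4 cells, with 4 over all genes and 10 over 29 potassium channel genes. Only 1 start per gene was used, and a gene may start elsewhere in astrocytes.

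Among the inward rectifiers, *Kcnj10* was high in nearly every cell. Its normalized counts in S-type had a lowest value of 129, a median of 4966 and a highest value of 6999. In T-type these values were 1323, 3464 and 20133. M-type cells had 1.88, 6237, 3241, 10634 and 6549.9, and NR cells had 17489, 3881, 7201, 727 and 9740.4. S-type cell 6 and M-type cell 1 lay far below the other cells of their types, M-type cell 1 with 3 reads. The types overlapped, and the mean levels, from 7808 in NR over 6300.4 in T-type and 5333 in M-type to 4288 in S-type, were all within 2-fold of each other. The log2 ratio of S-type over NR was -0.86 (95% counting interval -0.88 to -0.84), and it lay between -1.16 without NR cell 4 and -0.33 without NR cell 1.

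*Kcnj16*, whose product pairs with that of *Kcnj10*, was read in 5 cells but had 2193 of its 2200 reads in M-type cell 2. Of the other 21 cells none had more than 3 reads, so the M-type level of 307 normalized counts is that of 1 cell. *Kcnj3*, *Kcnj5*, *Kcnj6* and *Kcnj9* encode the G protein-gated inward rectifiers, on which ethanol is known to act directly. *Kcnj3* and *Kcnj5* had no read in any of the 22 cells, which allows up to 0.00845 CPM over their pooled libraries, and *Kcnj6* and *Kcnj9* had 1 read each, both in NR cells. *Kcnj1*, *Kcnj11* and *Kcnj12* had no read either. Without reads of these genes no difference between types was detectable at this depth.

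Of the tandem-pore leak channels, *Kcnk2* encodes a channel that opens on membrane stretch and lipids. Its normalized counts were 372, 1241 and 6059 in S-type (lowest, median and highest) and 155.1, 4253 and 32951 in T-type. M-type cells had 1083, 86.8, 1584, 2353 and 3030.2, and NR cells had 2204, 1461, 7509.7, 70.6 and 4834. T-type had the highest mean, although its lowest cell was below every S-type cell. The log2 ratio of T-type over S-type was 2.18 (2.14 to 2.21), and it dropped to 0.98, just under 2-fold, without T-type cell 2. Over NR the ratio was 1.43 (1.40 to 1.45), and 0.24 without that cell. T-type cell 2 had the second smallest size factor, 0.276, and with CPM of the pooled reads in place of size factors the T-type over S-type log2 ratio was 1.18.

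*Kcnk13*, a leak channel best known from microglia, had 0, 595 and 3443 normalized counts in S-type and 1.28, 60.6 and 4882 in T-type (lowest, median and highest). M-type cells had 1223, 44.1, 485, 125 and 661, and NR cells had 716, 53.3, 3.6, 2.39 and 416. S-type was 2.03 higher than NR on the log2 scale (1.95 to 2.11), with a range of 1.01 without S-type cell 6 to 3.03 without NR cell 1. The high value in T-type came from cell 3, without which the ratio over NR turned from 1.89 to -1.56. NR cells 1, 2 and 4, with microglial markers over 50 CPM, had 716, 53.3 and 2.39 normalized counts of *Kcnk13*. NR cells 3 and 5 had 3.6 and 416, and S-type cell 6, with 3443, had no microglial read. Whether microglial RNA contributed to *Kcnk13* was not tested.

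*Kcnk1* and *Kcnk10* encode further leak channels named in astrocytes. The mean levels of *Kcnk1* were close, at 299 normalized counts in NR, 363 in M-type, 391 in T-type and 413 in S-type, and its cells overlapped between all types. *Kcnk10* had mean levels of 951 in NR, 317 in M-type, 459 in T-type and 828 in S-type, and its cells ranged from 0 to 3971. Its ratio of M-type over NR was -1.59 (-1.65 to -1.52) and turned to 0.69 without NR cell 5, and that of T-type over NR turned from -1.05 to 1.22 without the same cell.

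**Figure D3:**
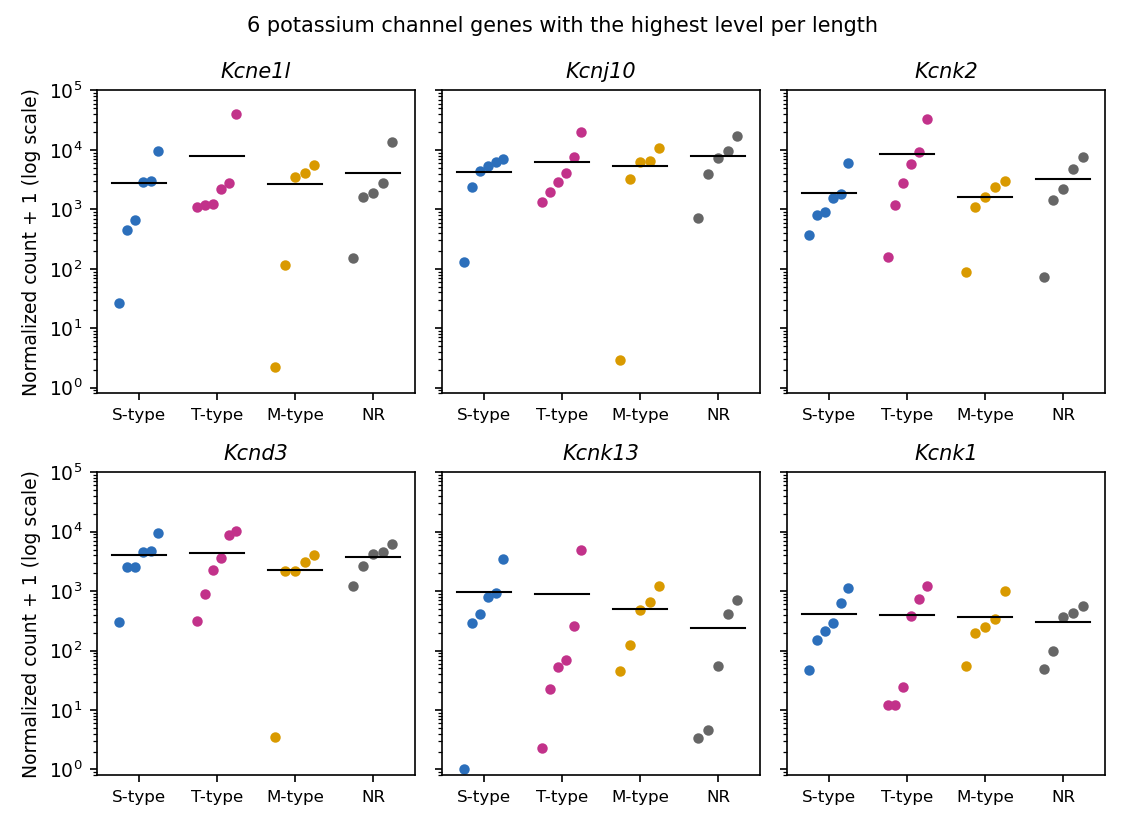
Normalized count plus 1 (y axis, log scale) of the 6 potassium channel genes with the highest level per length, by response type (x axis). Points are cells, and the line is the mean of a type. The lowest M-type point for *Kcne1l*, *Kcnj10* and *Kcnd3* is cell 1, and the highest T-type point for *Kcne1l* and *Kcnk2* is cell 2.

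Voltage-gated channels were led by *Kcnd3*, which encodes a fast inactivating (A-type) channel. S-type cells had 304, 3563 and 9420.0 normalized counts and T-type cells 314, 2920.3 and 10079.9 (lowest, median and highest). M-type cells had 2.50, 2145, 3093, 4031 and 2215, and NR cells had 4271, 4483, 6101, 2637 and 1196. Apart from M-type cell 1, with 4 reads, all cells had over 300 normalized counts, and the log2 ratios in the 4 comparisons lay between -0.70 and 0.22, less than 2-fold.

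*Kcnf1* encodes a silent subunit that joins other voltage-gated pore subunits. Its mean level was highest in NR, at 945 normalized counts, and went down through M-type (659) and T-type (248) to S-type (142). S-type over NR was -2.73 on the log2 scale (-2.82 to -2.64) and -1.21 without NR cell 5, the cell with the highest value (3402). T-type over NR was -1.93 (-2.02 to -1.84), and without that cell -0.41.

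*Kcnc2*, which encodes a fast delayed rectifier of fast-spiking neurons, had the largest ratios of S-type against T-type and against NR. S-type cells had 0, 206, 1618, 2241, 10.2 and 1007 normalized counts, so 4 of 6 were above 200. T-type cells reached at most 9.61, and 4 of 6 had no read. M-type cells had 4.38, 0.700, 84.9, 0 and 461, and NR cells had 0 except for cell 4, with 6.58. The log2 ratio of S-type over NR was 9.33 (8.49 to 10.33), from 6775 against 11 reads, and it stayed between 8.75 and 10.70 when any 1 cell was left out. T-type over S-type was -8.80 (-9.60 to -8.10), between -11.18 without T-type cell 6 and -8.22 without S-type cell 4. M-type over NR was 6.39 (5.54 to 7.39), with a range of 4.09 without M-type cell 5 to 7.75 without NR cell 4. S-type cell 1, without a read, overlapped with T-type and NR cells, and S-type cell 5 (10.2) lay just above the highest of them.

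*Kcna1*, *Kcna2* and *Kcna6*, which encode low-threshold delayed rectifiers of axons, had their highest mean levels in NR. *Kcna2* had reads in all 5 NR cells, with 83.2, 390.2, 2.16, 20.3 and 553 normalized counts, and no read in any of the 5 M-type cells. It was the only potassium channel gene without overlap between M-type and NR, although NR cell 3 had 3 reads only. With 3 reads set over the M-type cells, the level in NR was 658-fold higher, and 389-fold without NR cell 5. Over the alternative settings the log2 ratio of M-type over NR lay between -9.28 and -7.72. S-type had 0, 1.48 and 78.8 and T-type 0, 0.324 and 16.4 (lowest, median and highest), which gave log2 ratios over NR of -3.24 (-3.48 to -3.02) and -6.06 (-7.69 to -4.84). Leaving out 1 cell moved the first between -4.28 (S-type cell 4) and -2.48 (NR cell 5), and the second between -8.73 (T-type cell 3) and -5.30 (NR cell 5).

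*Kcna6* had 103, 2493, 244, 49.0 and 0 normalized counts in NR cells, of which cell 2 held most. S-type cells had 0, 1.53 and 469 and T-type cells 0, 0.648 and 5.45 (lowest, median and highest), while M-type cells had 0, 61.6, 8.91, 417 and 0.864. T-type was lowest, with a log2 ratio of -8.64 over NR (-10.09 to -7.52) and of -6.67 over S-type (-8.12 to -5.54). Without NR cell 2 the first was -6.10, and without S-type cell 3 the second was -5.84. S-type over NR turned from -1.97 to 0.57 without NR cell 2, and M-type over NR moved from -2.57 to -0.02. *Kcna1*, 61.9 kb from *Kcna6* on chromosome 6, had 486 of its 563 reads in the same NR cell 2. Its ratio of M-type over NR turned from -3.35 to 0.49 without that cell, and that of S-type over NR moved from -7.19 to -3.35.

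**Figure D4:**
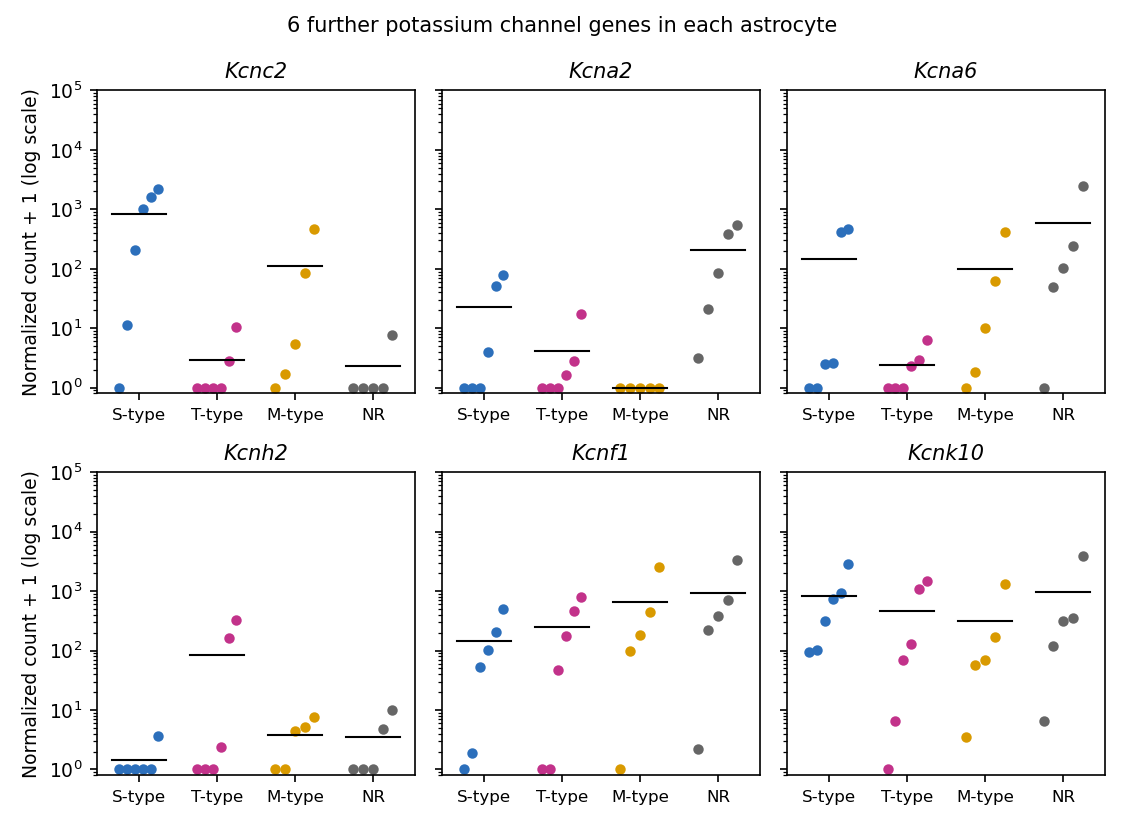
Normalized count plus 1 (y axis, log scale) of 6 further potassium channel genes by response type (x axis). Points are cells, and the line is the mean of a type. Points at 1 have no read. *Kcnc2* is above 200 in 4 of 6 S-type cells and in 1 M-type cell, *Kcna2* has no read in M-type, and *Kcnh2* is above 100 in 2 T-type cells and has at most 9.08 normalized counts in every other cell.

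*Kcnh2* and *Kcnh5*, channels of the ether-a-go-go family, differed in where they were read. *Kcnh2* had 0, 0.704 and 328 normalized counts in T-type (lowest, median and highest), with 180 and 249 reads in cells 4 and 5, and at most 9.08 in any other cell. T-type over S-type was 7.55 on the log2 scale (5.99 to 9.83), from 430 against 3 reads, and over NR it was 5.00 (4.36 to 5.73). Without T-type cell 4 these ratios were 6.22 and 3.67. *Kcnh5* had 1030.5 normalized counts in NR cell 4, one of the cells with microglial reads, and at most 180.5 elsewhere. Its ratios over NR, -5.68 in T-type, -3.45 in S-type and -1.57 in M-type, turned to 0.74, 2.97 and 4.85 without that cell. *Kcnq5*, a subunit of the M-current, was read mostly in S-type cell 5 (192) and M-type cell 2 (131). Its S-type over NR ratio of 5.28 (4.28 to 6.51) became 2.08 without the former, and its M-type over NR ratio turned from 4.87 to -0.95 without the latter.

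No calcium-activated channel gene was read in all cells of a type. *Kcnn1*, a small-conductance channel, was read in 2 cells, with 596 normalized counts in NR cell 3 and 30.1 in M-type cell 4. *Kcnma1*, which encodes the large-conductance channel that is an established ethanol target, had 112 reads in all, of which 63 were in S-type cell 6 and 41 in NR cell 3. *Kcnn3*, of the same family as *Kcnn1*, had a mean level of 78.6 normalized counts in M-type, 48.6 in S-type, 18.96 in NR and 1.82 in T-type. Its ratios over NR of 1.36 in S-type and 2.05 in M-type turned to -1.25 without S-type cell 3 and -0.46 without M-type cell 4. *Kcnn2*, also of that family, had mean levels of 14.5 in NR, 13.1 in S-type, 3.83 in M-type and 0.107 in T-type, the last from 1 read. T-type was at least 2-fold lower than S-type and than NR for *Kcnma1*, *Kcnn3* and *Kcnn2*, on 3, 2 and 1 T-type reads. *Kcnma1* came within 2-fold of S-type (-0.12) when S-type cell 6 was left out.

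Auxiliary subunits were led by *Kcne1l*. Its normalized counts were 25.9, 1793 and 9735 in S-type and 1107, 1696 and 39748 in T-type (lowest, median and highest). M-type cells had 1.25, 113, 4093, 5675 and 3467, and NR cells had 2786, 1908, 1596, 152.5 and 13726. T-type had the highest mean but nearly the same median as S-type, and its log2 ratio over S-type turned from 1.52 to -0.72 without T-type cell 2. *Kcnab1*, a beta subunit of Kcna channels, had a single M-type cell with reads (cell 1, 1035 normalized counts) and 2 reads in T-type. T-type over S-type was -7.58 (-10.64 to -5.72), and over NR it was -8.06 (-11.11 to -6.20). M-type over NR turned from 1.85 to -7.22 without M-type cell 1. *Kcnmb1*, a beta subunit of the *Kcnma1* channel that lies within *Kcnip1* on the other strand, had 1 read in T-type against 281 in S-type and 627 in NR, all of the latter in cell 2. *Kcnip4*, a calcium-binding partner of Kcnd channels, had 81.9% of its summed normalized counts in T-type cell 4 and 91 of its 258 reads in NR cell 2, so its T-type over NR ratio turned from 2.30 to -2.25 without the former.

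M-type cell 1 had an unusual set among these genes. It had 3 reads of *Kcnj10*, 4 of *Kcnd3* and 2 of *Kcne1l*, yet 1955 of *Kcnk13*, 1731 of *Kcnk2* and 1655 of *Kcnab1*. Its library held 20652035 reads, and 11 of the 12 astrocyte markers were read, at a sum of 11493 CPM.

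In the comparison of T-type with S-type, 16 of 31 potassium channel genes with a ratio were at least 2-fold lower in T-type, which is 51.6% beside 32.5% of all genes. At least 2-fold higher were 7 genes (22.6%, beside 25.7% of all genes). The median log2 ratio was -1.79 over the potassium channel genes and -0.09 over all genes. Lower in T-type were 6 of 9 voltage-gated pore subunits, all 3 calcium-activated channels and 5 of 9 auxiliary subunits, but none of the 4 tandem-pore channels. All 16 genes that were lower had a mean level under 1000 normalized counts. At that level, a limit chosen after the values were seen, 38.7% of all genes and 61.5% of 26 potassium channel genes were at least 2-fold lower. The 5 genes above it (*Kcnj10*, *Kcne1l*, *Kcnk2*, *Kcnd3* and *Kcnq1ot1*) had a median ratio of 0.56, beside 0.48 over all genes of that level. Cells of the types did not overlap for 1 of the 30 potassium channel genes with a mean level of 10 or more and for 0.827% of all genes.

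T-type stood lower against NR too, with 19 of 31 genes at least 2-fold lower (61.3%, beside 32.8% of all genes) and 5 at least 2-fold higher (16.1%, beside 28.4%). The median ratio was -1.66, beside -0.07 over all genes. Under a mean level of 1000, 18 of 26 potassium channel genes (69.2%) and 39% of all genes were lower. With the 3 NR cells left out that had over 50 CPM of microglial markers, 11 of 25 genes were lower, beside 27.2% of all genes. With T-type cells 2 and 3 left out, whose size factors were under 0.3, 21 of 31 were lower, beside 36.4% of all genes, and against S-type 19 of 31, beside 36.2%. No potassium channel gene had T-type and NR cells apart, beside 1.04% of all genes. Both comparisons of T-type used the same T-type cells.

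S-type and NR differed less. At least 2-fold higher in S-type were 5 of 31 genes (16.1%, beside 25.1% of all genes), and 8 were at least 2-fold lower (25.8%, beside 22.5%). The median ratio was -0.20 over potassium channel genes and 0.03 over all genes. *Kcnc2*, *Kcnq5*, *Kcnk13* and *Kcnn3* were among the higher genes, and *Kcna1*, *Kcnip4*, *Kcnh5*, *Kcna2*, *Kcnf1*, *Kcnh2*, *Kcna6* and *Kcnc1* were lower. Without NR cell 2 the number of higher genes was 11. The share of all genes is not given for that setting, so this count shows the dependence on that cell only. With all cells kept, no gene had cells apart, beside 0.422% of all genes.

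M-type differed from NR in both directions, with 9 of 32 genes at least 2-fold higher (28.1%, beside 19.8% of all genes) and 12 at least 2-fold lower (37.5%, beside 28.1%). The median ratio was -0.57, and -0.20 over all genes. All 3 Kcnab beta subunits were among the higher genes, and 5 of 9 voltage-gated pore subunits among the lower. Each of the 3 beta subunits rested on 1 M-type cell. The ratio of *Kcnab1* turned to -7.22 without M-type cell 1 and that of *Kcnab3* from 1.75 to -4.50 without M-type cell 2, and that of *Kcnab2* moved from 1.69 to 0.22 without M-type cell 5. Without M-type cell 1, left out after its values were seen, 7 of 32 genes were higher (21.9%, beside 18.8% of all genes). Then 12 were lower (37.5%, beside 28.2%). With the 3 NR cells left out that had microglial reads over 50 CPM, 12 of 30 genes were higher (40%, beside 36.6% of all genes) and 9 lower (30%, beside 25.3%), and the median ratio was 0.47, beside 0.26 over all genes. In both settings the share of higher genes was near that of all genes. Cells were apart for *Kcna2* alone, 1 of 30, beside 0.633% of all genes. The 3 comparisons with NR share the same NR cells, so their counts are not independent of each other.

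**Figure D5:**
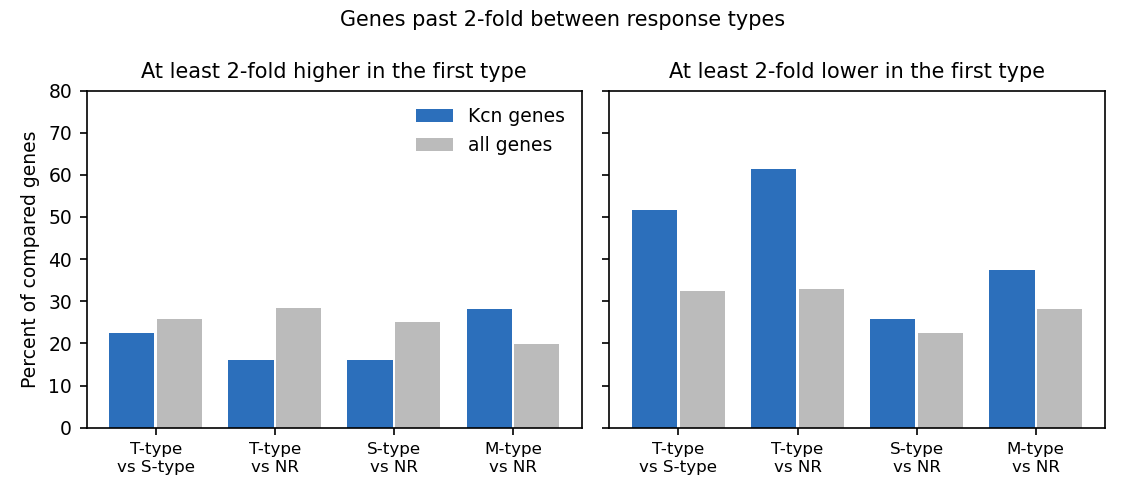
Percent of compared genes (y axis, from 0) that were at least 2-fold higher (left) or lower (right) in the first type of each comparison (x axis), for the potassium channel genes in blue and all genes in grey. The largest gaps are those of lower genes in T-type, 51.6% and 61.3% beside 32.5% and 32.8%.

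*Kcnq1ot1*, named here after its values were seen, is an imprinted antisense RNA and no channel gene. It had 58935 reads, while *Kcnq1*, in which it lies on the other strand of chromosome 7, had none. T-type had the lowest mean level, 1132 normalized counts beside 3567 in NR, 2229 in M-type and 2161 in S-type. Its cells ranged from 0 in M-type cell 1 to 9688 in NR cell 5. It is 1 of the 19 genes counted above as lower in T-type than in NR.

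Of 37 other genes that move potassium or bind its channels (subunits of the sodium-potassium ATPase, cation-chloride cotransporters, pacemaker channels and channel partners), 20 had a read in at least 5 cells and a ratio in each comparison. T-type was at least 2-fold lower than NR for 10 of these 20 and higher for none, beside 32.8% and 28.4% of all genes. M-type was lower than NR for 11 and higher for 3, beside 28.1% and 19.8%. S-type was lower than NR for 8 and higher for 2, beside 22.5% and 25.1%. T-type was lower than S-type for 6 and higher for 3, beside 32.5% and 25.7%, so neither was above the share of all genes. *Slc12a2*, a cotransporter that brings potassium into the cell, was at least 2-fold lower than NR in all 3 types, with a ratio of -2.38 in T-type, -1.31 in S-type and -1.16 in M-type. Without NR cell 5, which had 10063 normalized counts, these ratios were -1.13, -0.06 and 0.09.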

How the data were processed

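The RNA of 22 single astrocytes was amplified as antisense RNA in 2 rounds and sequenced from stranded TruSeq libraries on a NextSeq instrument. After trimming and STAR alignment to GRCm38, the authors deposited raw counts of uniquely aligned exonic reads per gene symbol, made with VERSE (the submitters' processing notes name HTSeq). Tool versions and the use of strand are not given in the sources used here.

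Size factors were medians of ratios across 3670 genes read in all cells, and dividing by them gave normalized counts. Their mean over the cells of a type was the level in that type. A type without reads received 3 reads divided by its summed size factors, and no ratio was formed where both types had at most 3 reads. Genes read in 5 or more cells were compared between T-type and S-type and between NR and each responding type. A gene counted as past the limit at 2-fold. Its interval came from the exact binomial split of the reads. No test between types was computed, since each type is 1 sample. No pair of cells had identical counts. Libraries held 2937786 to 22131076 reads, and intervals give the counting error at that depth only.

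Named genes were those read in all 22 cells, the 3 at either end of the ratios of each comparison at a mean level of at least 10, those without overlap between types, the 10 with the highest RPKM, and lists of textbook astrocyte channels, ethanol targets and channels in the study's table of differing genes. Some genes that these rules reach are not reported here, but they stay in the counts. The members and lists were chosen with earlier results of these data known. RPKM used the union of exons in GENCODE M21, in which all 95 genes were found. Promoters came from RefSeq.

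Alternatives were mean CPM, TMM factors (edgeR 4.0.16, R 4.3.3), CPM of pooled reads, a pseudocount of 1, all genes with a read, genes at a mean level of 10 or more, a limit of 4-fold, and leaving out each cell. Scripts used Python 3.11.15, NumPy 2.4.6, pandas 2.3.3, SciPy 1.17.1 and matplotlib 3.10.9, and were checked on simulated counts.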

Additional observations from a re-analysis of the deposited data

Results flagged for a closer look

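Within each type, the highest and lowest cell was checked by Dixon's test for the number of potassium channel genes with a read, the share of reads on them, and the log2 of the normalized count plus 1 of the 5 genes read in all 22 cells. Of 28 such groups 4 held a cell far from the others. The limit marks about 1 in 20 groups by chance where values are normal and groups independent. Here the same cells enter several groups, so the 4 cannot be set against that rate. On that log2 scale, S-type cell 6 had 7.02 for *Kcnj10*, beside 11.24 to 12.77 in the other S-type cells. M-type cell 1 had 1.52 for *Kcnj10*, beside 11.66 to 13.38, and 1.81 for *Kcnd3*, beside 11.07 to 11.98. T-type cell 2 had 15.28 for *Kcne1l*, beside 10.11 to 11.46.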

How the results depend on the processing

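No paired analysis was possible because no test was computed, and a number in the names of cells that recurs across types is not explained in the sources used here. The cause of the shifts below was not tested. Among higher genes, T-type versus S-type gave 7 genes as reported, but 4 with mean CPM, 4 with CPM of pooled reads, 3 at a limit of 4-fold and 11 with no filter. T-type versus NR gave 5, but 3, 2, 2 and 9 in the same order. The share of all genes higher in T-type versus S-type also moved, from 25.7% to 16.6% with mean CPM and 16.4% with pooled CPM. In T-type versus NR it moved from 28.4% to 19.2% and 18.6%. With no filter there were also 31 lower genes in that comparison, 22 lower and 11 higher in S-type versus NR, and 25 lower and 15 higher in M-type versus NR, and 4-fold left 4 higher genes in the latter. A mean level of at least 10 left 10 genes lower in T-type than in S-type. No share of all genes is given for the 4-fold, no-filter and mean-level counts, so they show the dependence on the setting only. Counting from 5 reads, cells had a median of 10 genes in T-type and 17 in NR. Without *Kcnj10* the share of reads in NR was 0.150%. Pooled CPM turned *Kcnk13* in T-type versus NR to -0.27.

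Chosen after the values were seen, leaving out T-type cells 2 and 3 gave 3 of 31 genes higher (9.68%, beside 24% of all genes) and 1 with cells apart versus NR. Leaving out NR cells 1, 2 and 4 gave 11 of 25 lower (44%, beside 27.2% of all genes) and 1 apart in T-type. It gave 13 of 28 higher (46.4%, beside 41.6% of all genes) and 2 apart in S-type, and 3 apart in M-type. Fewer cells make non-overlap easier to reach for any gene, and no share of all genes is given for these counts of genes apart.

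Leaving out each cell in turn, genes with cells apart ranged from 1 to 2 in T-type versus S-type, 0 to 2 in T-type versus NR and 0 to 1 in S-type versus NR. Higher genes ranged from 3 to 7 in T-type versus NR (7 without NR cell 5) and from 4 to 11 in S-type versus NR (11 without NR cell 2). No share of all genes is given for these ranges. Some log2 ratios of at least 2-fold changed sign without 1 cell. They are listed below only for genes chosen by the rules for named genes. Genes outside those rules changed sign too. In T-type versus S-type these include *Kcnab2* (-3.18 to 3.22), *Kcnc1* (-0.11 to 2.75) and *Kcnip1* (-7.47 to 0.25). In M-type versus NR they include *Kcnab3* (-4.50 to 5.41). Ratios under 2-fold that changed sign are left out, such as that of *Kcnj10* in T-type versus S-type (-0.28 to 0.77). In T-type versus S-type, *Kcne1l* ranged from -0.72 to 2.52. In T-type versus NR, *Kcnh5* ranged from -10.67 to 0.74, *Kcnip4* from -2.25 to 6.61, *Kcnk10* from -1.89 to 1.22, *Kcnk13* from -1.56 to 2.89 and *Kcnq5* from -2.41 to 0.020. In S-type versus NR, *Kcna6* ranged from -2.81 to 0.57, *Kcnh5* from -3.91 to 2.97 and *Kcnn3* from -1.25 to 7.34. In M-type versus NR, *Kcna1* ranged from -7.28 to 0.49, *Kcnab1* from -7.22 to 3.82, *Kcnh5* from -2.28 to 4.85, *Kcnk10* from -3.69 to 0.69, *Kcnn2* from -6.07 to 1.41, *Kcnn3* from -0.46 to 8.04 and *Kcnq5* from -0.95 to 5.68. The ratios of *Kcnc2* between T-type and S-type and of *Kcnc2* and *Kcna2* over NR in S-type and M-type kept their sign throughout. Mean CPM moved the median of all genes in T-type versus S-type from -0.09 to -0.46, and that of the potassium channel genes from -1.79 to -2.38.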
